A study of Mus musculus with 8 samples.

Results

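The PGC-1 coactivators and the nuclear factors that direct the building of mitochondria were followed in inhibitory neurons of the mouse cortex. The 10 genes were chosen by symbol out of the 55341 gene symbols counted in each library, and all 10 had counts in all 8 libraries and passed the filter on low counts. They are the coactivators Ppargc1a, Ppargc1b and Pprc1, the receptors Esrra and Esrrg, the transcription factors Nrf1 and Gabpa, and the mitochondrial transcription factors Tfam, Tfb1m and Tfb2m. RNA came from nuclei of cortical GABAergic neurons, which a Cre-dependent nuclear fluorescent protein marked for cell sorting. All mice were juvenile and hypothyroid, because their mothers received propylthiouracil (PTU), a blocker of thyroid hormone synthesis, during pregnancy. The PTU group (mice 9 to 12, n = 4) got no hormone, and the PTU+TH group (mice 13 to 16, n = 4) got thyroid hormone (TH) by intraperitoneal injection, with brain collection 24 h later. Neither the labels nor the design text name the Cre driver, the age, the sex or the dose. Levels at normal thyroid function are not analysed here. The comparison asks which of these transcripts differed a day after the injection.

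Mitochondria keep a small genome of their own, but nearly all of their proteins come from nuclear genes. PGC-1 coactivators do not bind DNA themselves: they dock on transcription factors, among them the estrogen-related receptors (ERRs), PPARs and NRF1, and raise transcription of respiratory genes. NRF1 and GABP (also called NRF2) in turn act on Tfam, Tfb1m and Tfb2m, whose proteins work inside mitochondria, where TFAM packs the mitochondrial DNA and, with TFB2M and the mitochondrial RNA polymerase, starts its transcription. In the cortex Ppargc1a is known for high expression in parvalbumin (PV) neurons, fast-spiking inhibitory cells with a heavy demand for energy, and in other tissues it is a known target of TH.

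Library totals lay between 21.76 M and 29.08 M counts. Of 17355 genes tested, 2.12% were called between the groups at an adjusted p under 0.05 (quasi-likelihood test of edgeR), of which the higher ones in PTU+TH made up 1.49% and the lower ones 0.634% of all tested. The median log2 fold change of all tested genes was -0.01. In a list of 7 genes known to respond to TH, chosen with earlier results of these data known, 6 were called higher, of which 3 (Hr, Itga7 and Sema7a) were called with only the 6 libraries that had Y-linked counts. The summed level of the list was 51.6 to 67.7 CPM (the count scaled by library size) in PTU and 141.1 to 163.0 CPM in PTU+TH mice. Y-linked genes had no counts in PTU+TH mice 15 and 16, so this difference between libraries lies partly along the contrast. Of 6 GABAergic markers 5 had counts in all libraries, with Gad2 between 392.4 and 481.3 CPM and Slc32a1, the vesicular GABA transporter gene, between 9.01 and 21.1 CPM. Markers of excitatory neurons, astrocytes, oligodendrocytes and their precursors, microglia and endothelium had 0 called members in edgeR, DESeq2 and limma voom, with 2 of their 34 tested genes at an unadjusted p under 0.05, beside 12.8% of all tested genes, and their summed levels overlapped between the groups. Both genes, Mobp of oligodendrocytes (log2 fold change 1.30) and C1qa of microglia (1.09), were higher in PTU+TH mice, and 5 of 6 oligodendrocyte and 6 of 6 tested microglia markers had values above 0 (medians 0.47 and 0.57). The GABAergic marker Dlx1, Gfap of astrocytes and P2ry12 of microglia were at 0 in all libraries, but each lies wholly inside another annotated gene, where genes were at 0 in this counting whatever their expression, so these zeros say nothing of the cells. In bulk RNA of sorted nuclei, fewer cells of a type and less RNA per cell cannot be told apart.

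Promoter sequence is shown first for Ppargc1a, whose level differed between the groups, and then for 3 stretches of other members with a match to a motif of this network. The windows come from RefSeq (build GRCm38.p6) and reach from 250 bases before to 50 after each annotated start. They were searched for the 9 members other than Ppargc1b, which was left out. In the Ppargc1a stretch, the 250 bases before its start (chr5:51567726-51567975, minus strand), the capitals mark the half-site of the cAMP response element, TGACG, which here lies on the opposite strand and begins 49 bases before the start. Cyclic AMP signalling through CREB at such elements is a textbook route of Ppargc1a induction.
Ppargc1a: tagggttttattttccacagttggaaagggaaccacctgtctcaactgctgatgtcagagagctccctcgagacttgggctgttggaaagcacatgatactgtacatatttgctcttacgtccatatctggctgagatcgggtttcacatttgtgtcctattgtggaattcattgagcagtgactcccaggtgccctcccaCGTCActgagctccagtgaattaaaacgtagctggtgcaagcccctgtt
This short motif is in 20.8% of the 32851 RefSeq windows of the same length. In the stretches below, of 30 bases each, the capitals mark a GABP (ETS family) motif, CCGGAAG, in Tfam (chr10:71238073-71238102, minus strand) and on the opposite strand in Gabpa (chr16:84835020-84835049, plus strand), and a MEF2 motif in the first of 4 Esrrg windows (chr1:187608974-187609003, plus strand).
Tfam: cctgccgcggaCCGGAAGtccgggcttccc
Gabpa: gagggtaagtgCTTCCGGgtccctcagcta
Esrrg: taaaactttgCTATTTATAGtctacgcccg
The GABP motif is in 8.86% and the MEF2 motif in 3.19% of all windows. Further matches were a YY1 motif, AAGATGGCG, in Gabpa (1.40% of all windows), TGACG on each strand in Tfb1m, and a MEF2 motif in the second Nrf1 window. Searched on both strands, the windows of the 9 members held no match to the full cAMP element TGACGTCA, which contains TGACG, the NRF1 palindrome of GCGCA followed by TGCGC, the ERR motif TCAAGGTCA or the direct repeat of 2 AGGTCA half-sites 4 bases apart, which thyroid hormone receptors bind. Each of these 4 motifs was rare in windows of this size, from 0.0152% for the direct repeat to 1.79% for the cAMP element. These matches describe letters and were not tested as binding sites.

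Among the coactivators, Ppargc1a rose after TH, Ppargc1b was higher without passing the test, and Pprc1 differed by less than its spread between mice. Ppargc1a (chromosome 5, 51454250 to 51567726, minus strand) encodes PGC-1alpha. Its level was 104.9, 109.1, 147.8 and 122.5 CPM in PTU mice 9 to 12 and 159.1, 165.8, 168.2 and 196.7 CPM in PTU+TH mice 13 to 16. Every PTU+TH library lay above every PTU library, with mouse 16 the highest of the 8 and mouse 11 nearest to the other group. The mean went from 121.1 ± 19.3 to 172.4 ± 16.6 CPM (mean ± SD, n = 4 a group), a 1.42-fold rise (log2 fold change 0.51, 95% confidence interval 0.26 to 0.76, edgeR adjusted p = 0.0407). With about 1.69% counting error against a spread between mice of 16.0% in PTU, depth was not what limited this value. Within the lower and the higher mouse numbers of each group the rise had log2 ratios of 0.60 in mice 9, 10, 13 and 14 and 0.43 in mice 11, 12, 15 and 16 (2 libraries a group, no test). In the 6 libraries with Y-linked counts it was 0.43 but no longer called (edgeR adjusted p = 0.384), and the call was also lost without PTU mouse 10 or 12 or without any one PTU+TH mouse, with an adjusted p from 0.0629 without mouse 13 to 0.141 without mouse 16.

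Because Ppargc1a is enriched in PV neurons, the markers of PV and of other inhibitory classes are given beside it. Of 8 PV class markers 3 were called higher, namely Syt2, Kcna1 and Nefh, and 0 lower. Among all tested genes 1.49% were called higher and 0.634% lower, the shares to set beside the counts of each class here. Of the 8, 6 had a log2 fold change above 0 and 2 below (median 0.42), the latter being Tac1 at -0.08 and Tmem132c at -0.43, which went from 246.0 to 182.8 CPM on average without passing the test. The call of Kcna1 was lost without PTU mouse 10 or 12 and without PTU+TH mouse 14, 15 or 16 (edgeR adjusted p from 0.0617 to 0.114), and with library totals as the only scaling (0.0512). None of the 3 was called in the 6 libraries with Y-linked counts or with Y-linked counts as a term, where the log2 fold change of Kcna1 was 0.38 in both (edgeR adjusted p = 0.405 and 0.26; 0.54 in all 8 libraries). The summed level of the 8 was 454.5 to 692.0 CPM in PTU mice and 468.7 to 652.5 CPM in PTU+TH mice, so the groups overlapped, and none of the 8 was at 0. Pvalb itself was low, at 1.06 to 2.57 CPM in PTU mice and 1.96 to 3.05 CPM in PTU+TH mice. Of the VIP class markers 5 of 6 had a log2 fold change below 0 (median -0.29), 1 was called lower and 0 higher. The called gene was Htr3a, which encodes a serotonin receptor channel, at 6.25 to 11.4 CPM in PTU mice and 2.59 to 4.64 CPM in PTU+TH mice (log2 fold change -1.11, edgeR adjusted p = 0.0344). Its call was lost in the 6 libraries with Y-linked counts (0.334), with Y-linked counts as a term (0.284), with library totals (0.067), without PTU mouse 9 or 10 and without PTU+TH mouse 14, 15 or 16 (0.0546 to 0.116). Prox1, a transcription factor gene, also had all PTU+TH libraries below all PTU libraries but did not pass (log2 fold change -0.28, edgeR adjusted p = 0.179). The summed level of the 6 VIP markers was 232.0 to 352.3 CPM in PTU and 218.9 to 232.8 CPM in PTU+TH mice, an overlap of mice 11 and 13 only. Of 6 SST class markers 0 were called (median 0.00), and of 6 Lamp5 class markers (median -0.09) 1 was called higher, the GABA receptor subunit gene Gabrd (1.40), and 0 lower by edgeR and limma voom, while DESeq2 also called Ndnf lower (-0.75 in edgeR). No marker of these 4 classes was at 0. The part of neuron class numbers or maturity in the rise of Ppargc1a was not tested.

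Ppargc1b (chromosome 18, 61298136 to 61400431, minus strand) encodes PGC-1beta, the closest relative of PGC-1alpha. The PTU mice had 81.4, 89.5, 105.7 and 103.1 CPM of it, the PTU+TH mice 108.9, 116.2, 111.5 and 139.4 CPM. The libraries of the groups did not overlap, but the distance between the nearest mice, 11 and 13, was small. The difference of 0.33 on the log2 scale (95% confidence interval 0.09 to 0.56) did not pass over all genes (edgeR adjusted p = 0.187). The ratio of Ppargc1a to Ppargc1b within each library, which does not depend on library scaling, was compared directly. Its log2 value was 0.37, 0.29, 0.48 and 0.25 in PTU and 0.55, 0.51, 0.59 and 0.50 in PTU+TH. Ppargc1a thus gained on its relative by 0.19 on the log2 scale, in 4 of 4 PTU+TH libraries against all 4 PTU libraries (exact permutation test, two-sided, p = 0.0286, the smallest that 70 arrangements allow, and 0.0429 adjusted over the 3 ratios compared). Relative to Gad2, a marker of all GABAergic neurons, the log2 ratio of Ppargc1a went from -1.83 ± 0.17 to -1.41 ± 0.13 (mean ± SD, n = 4 a group; exact permutation test, two-sided, p = 0.0286, adjusted 0.0429). In the 6 libraries with Y-linked counts these 2 differences were 0.18 and 0.31, where 4 against 2 libraries cannot reach 0.05. Without any one PTU+TH mouse both tests gave p = 0.0571 (exact permutation, 35 arrangements), with differences of 0.17 to 0.20 and 0.37 to 0.46. The groups still did not overlap in these, and without any one PTU mouse both tests gave p = 0.0286 (exact permutation, 35 arrangements).

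Pprc1 (chromosome 19, 46044886 to 46072915, plus strand), the PGC-1-related coactivator known from growing cells, was at 36.4, 45.1, 32.0 and 35.1 CPM in PTU mice and 37.3, 41.2, 36.4 and 44.6 CPM in PTU+TH mice. The groups overlapped over nearly their whole range (log2 fold change 0.10, 95% confidence interval -0.15 to 0.36, edgeR adjusted p = 0.823), and the value was 0.21 without PTU mouse 10 and 0.04 without PTU mouse 11 or PTU+TH mouse 16.

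**Figure D1:**
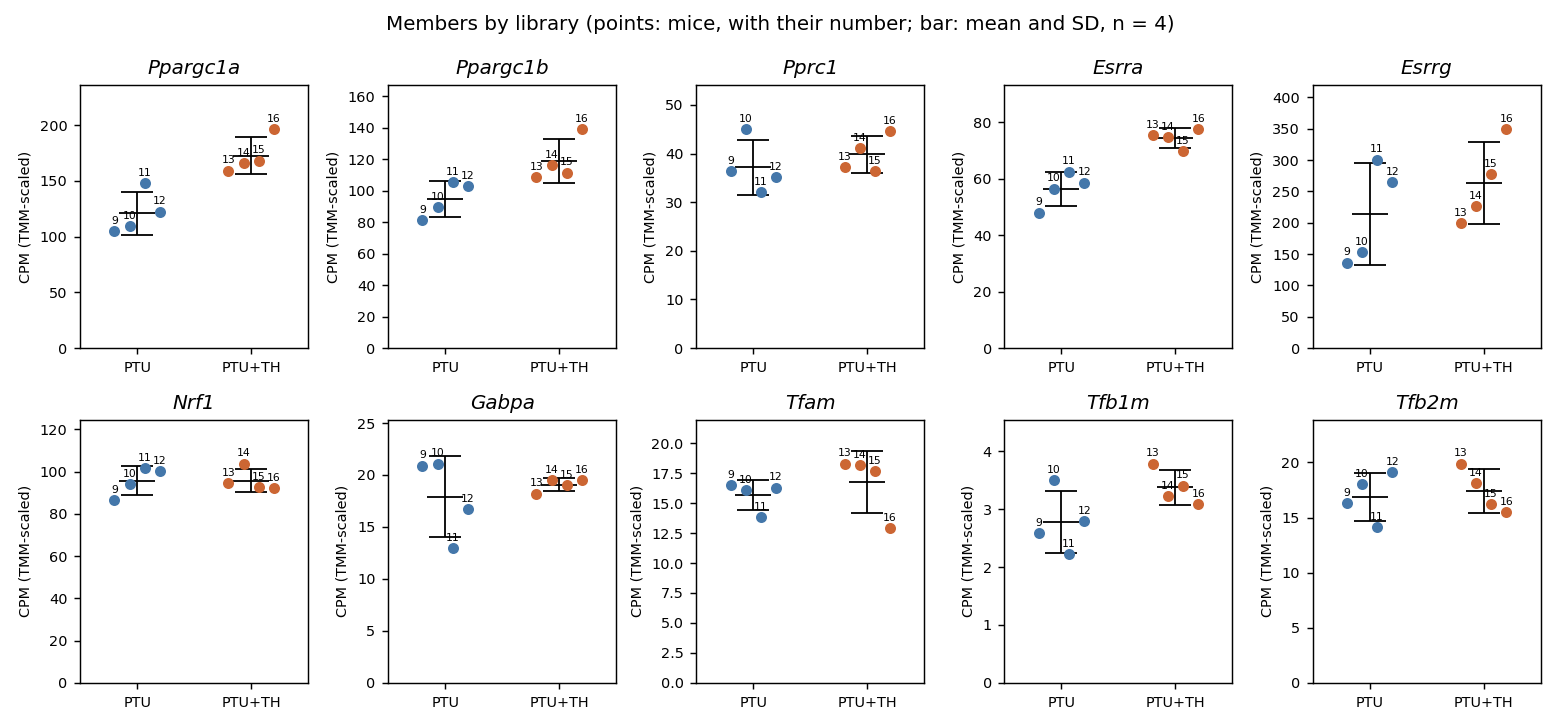
Each panel plots one gene's level in CPM (vertical axis from 0) for the 4 PTU and the 4 PTU+TH mice, with the mouse number at each point and the mean and SD as bars. Ppargc1a, Ppargc1b and Esrra have all PTU+TH points above all PTU points, and the other 7 genes overlap.

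Of the receptors on which PGC-1 docks, Esrra rose and Esrrg varied too much between mice to tell. ERRs are orphan nuclear receptors that bind respiratory gene promoters, and Esrra is itself a known target of PGC-1alpha acting through ERRalpha. Esrra (chromosome 19, 6910977 to 6921813, minus strand) was at 48.0, 56.5, 62.5 and 58.6 CPM in PTU mice and 75.6, 74.7, 69.7 and 77.7 CPM in PTU+TH mice. The groups were apart, and the PTU+TH mice lay close together, with a spread of 4.55% of their mean. The mean went from 56.4 ± 6.14 to 74.5 ± 3.39 CPM (mean ± SD, n = 4 a group), a 1.32-fold rise (log2 fold change 0.40, 95% confidence interval 0.20 to 0.60, edgeR adjusted p = 0.0453). Its size was 0.42 in the 6 libraries with Y-linked counts, without a call (edgeR adjusted p = 0.258). The call was also lost without PTU mouse 10 or 12 or without any one PTU+TH mouse (adjusted p from 0.082 without mouse 15 to 0.139 without mouse 16) and with library totals as the only scaling (0.0507). Its 3′ end overlaps Trmt112 on the other strand, the microRNA gene Mir6990 lies within it, and 98.5% of its body is free of other genes.

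Esrrg (chromosome 1, 187608791 to 188214885, plus strand), an ERR with high expression in tissues of heavy oxidative demand, was at 136.4, 153.4, 300.7 and 265.0 CPM in PTU mice and 199.9, 226.5, 277.1 and 349.8 CPM in PTU+TH mice. Mice 9 and 10 were low and mice 11 and 12 high within the PTU group, and mice 13 and 14 lay below mice 15 and 16 within PTU+TH. Its spread was 38.0% of the mean in PTU against 1.34% from counting, the widest of the 10 members, and its change was not resolved (log2 fold change 0.30, 95% confidence interval -0.29 to 0.89, edgeR adjusted p = 0.742). It was 0.51 without PTU mouse 11 and 0.13 without PTU+TH mouse 16, the ends of its range when single libraries were left out. In the 6 libraries with Y-linked counts the log2 fold change was -0.003, and with these 2 sets of mouse numbers as a term it was 0.35 (edgeR adjusted p = 0.117, a term added after the values were seen). The log2 ratio of Esrrg to Esrra was 1.85 ± 0.43 in PTU and 1.79 ± 0.35 in PTU+TH (mean ± SD, n = 4 a group; exact permutation test, two-sided, p = 0.714), so the data do not show that the 2 receptors responded differently.

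Neither of the DNA-binding factors Nrf1 and Gabpa was called. Nrf1 (chromosome 6, 30047988 to 30153458, plus strand) was at 86.5, 94.2, 101.5 and 100.3 CPM in PTU mice and 94.4, 103.8, 92.7 and 92.0 CPM in PTU+TH mice. Its log2 fold change had the narrowest interval of the 10 members, -0.18 to 0.19 (edgeR adjusted p = 0.996), which leaves out a rise of the size seen in Ppargc1a. Gabpa (chromosome 16, 84834925 to 84863779, plus strand), the DNA-binding subunit of GABP, was at 20.9, 21.1, 13.0 and 16.7 CPM in PTU mice and 18.2, 19.5, 19.0 and 19.5 CPM in PTU+TH mice. The PTU mice enclosed all PTU+TH mice (log2 fold change 0.08, 95% confidence interval -0.24 to 0.40, edgeR adjusted p = 0.91).

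None of the 3 factors that act inside mitochondria was called. Tfam (chromosome 10, 71225464 to 71238280, minus strand) was at 16.5, 16.1, 13.8 and 16.3 CPM in PTU mice and 18.3, 18.2, 17.7 and 12.9 CPM in PTU+TH mice. Of the PTU+TH mice 3 lay above all PTU mice and mouse 16 below all of them (log2 fold change 0.10, 95% confidence interval -0.20 to 0.40, edgeR adjusted p = 0.87). Without mouse 16 it was 0.20 and without PTU mouse 11 it was 0.04, neither called. Tfb2m (chromosome 1, 179528055 to 179546267, minus strand), the initiation factor, was at 16.3, 18.0, 14.1 and 19.1 CPM in PTU mice and 19.9, 18.1, 16.2 and 15.5 CPM in PTU+TH mice, with a log2 fold change of 0.05 (95% confidence interval -0.24 to 0.34, edgeR adjusted p = 0.952). Tfb1m (chromosome 17, 3519256 to 3557781, minus strand), known as a methylase of mitochondrial ribosomal RNA, had only 45 to 94 counts a library, and 66.9% of its body is free of other genes. It ranged from 2.23 to 3.50 CPM in PTU mice and from 3.09 to 3.79 CPM in PTU+TH mice, and its interval, -0.19 to 0.75, is too wide to exclude a rise like that of Ppargc1a (log2 fold change 0.28, edgeR adjusted p = 0.686).

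**Figure D2:**
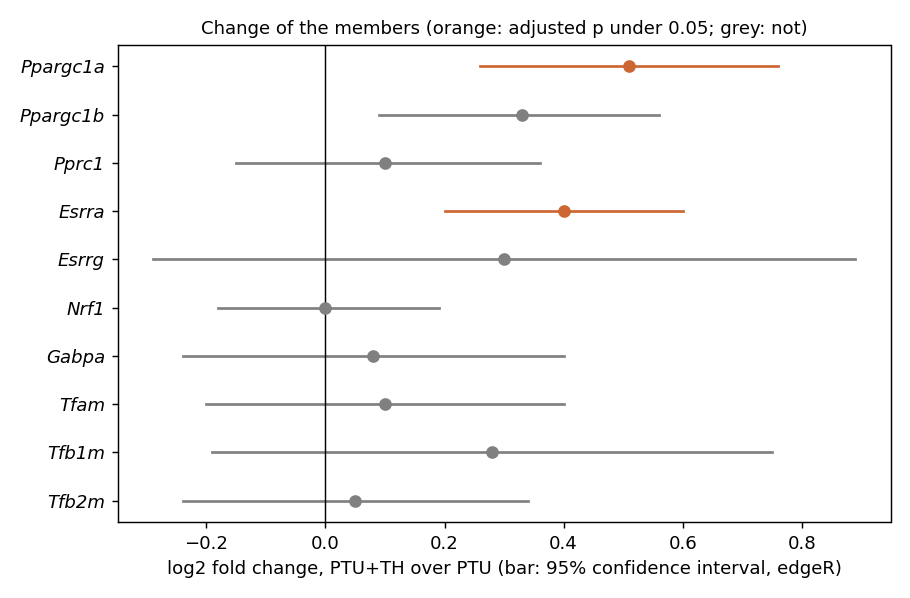
The log2 fold change of each member, PTU+TH over PTU (horizontal axis), is drawn as a point with its 95% confidence interval from edgeR. Ppargc1a at 0.51 and Esrra at 0.40 are in orange (adjusted p under 0.05), the interval of Nrf1 is centred on 0, and that of Esrrg runs from -0.29 to 0.89.

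In all, 2 of the 10 members were called higher and 0 lower, beside 1.49% and 0.634% of all tested genes. Without overlap between the groups, 3 of 10 were higher, beside 4.68% of all tested genes (8.71% in either direction). The median log2 fold change of the 10 was 0.19. All 10 values were at or above 0, but that of Nrf1 was 0.00 and the signs of Nrf1, Gabpa, Tfb2m and Esrrg turned under other fits.

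**Figure D3:**
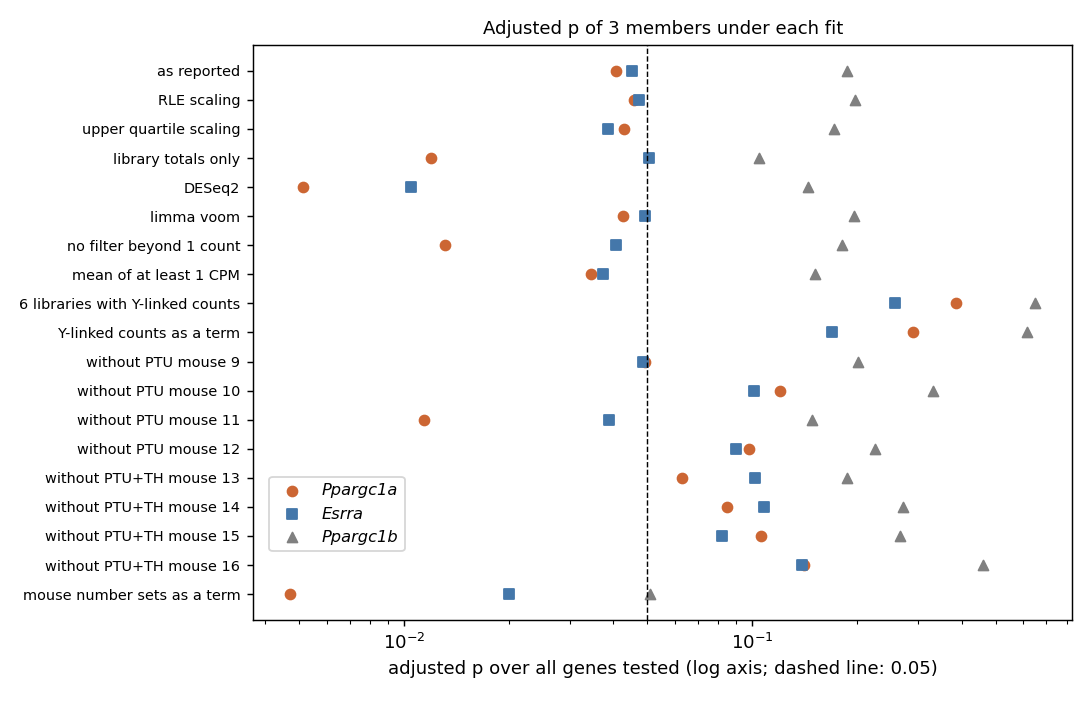
The adjusted p over all genes tested (horizontal log axis, dashed line at 0.05) is plotted for Ppargc1a, Esrra and Ppargc1b under each fit named on the vertical axis. Ppargc1a ranges from 0.00472 to 0.384 and Esrra from 0.0105 to 0.258 over the 18 alternatives, on both sides of the line, while Ppargc1b stays above it.

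Levels of different genes were compared per length. Counts seem to have been taken over whole gene bodies, introns included, since all 1265 protein-coding genes that lie wholly inside another gene were at 0, so levels are given per kb of gene body. Esrra led with 6.04 ± 0.986 CPM per kb (SD, n = 8). Pprc1, Ppargc1a, Tfam, Ppargc1b, Tfb2m and Nrf1 followed between 1.37 and 0.907 CPM per kb, and each overlapped its neighbour in this order. The order within this run turned with the group: Ppargc1a was at 1.07 ± 0.17 CPM per kb in PTU mice, below Pprc1 at 1.32 ± 0.201 and Tfam at 1.22 ± 0.0999, and at 1.52 ± 0.146 CPM per kb in PTU+TH mice, above Pprc1 at 1.42 ± 0.135 and Tfam at 1.31 ± 0.202 (mean ± SD, n = 4 a group). Gabpa at 0.641 and Esrrg at 0.394 CPM per kb also overlapped, and Tfb1m was lowest with 0.0799 CPM per kb. Per kb of exon the order began with Esrrg at 38.4, Ppargc1b at 26.8 and Ppargc1a at 22.3 CPM per kb, so the order depends on the length used. Tfb1m was last on both scales.

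Beyond the 10 members, 1 of the partners and modifiers of PGC-1 rose. Of 28 listed genes 27 were tested, and 1 was called higher and 0 lower, beside 1.49% and 0.634% of all tested genes. The median log2 fold change was 0.05. The called gene was Pparg (chromosome 6, 115360951 to 115490399), which encodes PPARgamma, the nuclear receptor on which PGC-1 was first found and for which it is named, best known from fat cells. It was at 11.6, 17.5, 20.5 and 18.9 CPM in PTU mice and 45.3, 46.6, 42.7 and 49.0 CPM in PTU+TH mice. The lowest PTU+TH mouse had more than the highest PTU mouse by a wide margin, and the mean went from 17.1 ± 3.88 to 45.9 ± 2.65 CPM (mean ± SD, n = 4 a group; log2 fold change 1.43, SE 0.15, edgeR adjusted p = 0.000236). Pparg was called under all 18 alternatives, with an adjusted p of at most 0.0187 and log2 fold changes from 1.28 to 1.52. Esrrb, the third ERR, was sparse, at 1.27 ± 0.663 CPM in PTU mice and 2.88 ± 0.938 CPM in PTU+TH mice (mean ± SD, n = 4 a group), and did not pass (log2 fold change 1.18, edgeR adjusted p = 0.161). At an unadjusted p under 0.05, 6 of the 27 were higher and 0 lower, beside 6.59% of all tested genes that were higher. Chosen after their values were seen, these include Ppard (log2 fold change 0.54, edgeR adjusted p = 0.122), Creb1 (0.26, 0.169), the catalytic AMPK subunit gene Prkaa2 (0.23, 0.362) and Gabpb2, a partner subunit of Gabpa (0.51, 0.101), which DESeq2 called.

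The 4 genes known to need PGC-1alpha in cortical PV neurons were 2 called higher and 2 not called, beside 1.49% of all tested genes called higher. Syt2, the calcium sensor of fast transmitter release, went from 8.38 ± 2.32 to 18.5 ± 2.40 CPM and Nefh, the heavy neurofilament chain, from 10.3 ± 0.487 to 17.2 ± 2.88 CPM (mean ± SD, n = 4 a group; edgeR adjusted p = 0.00603 and 0.0168). Neither was called in the 6 libraries with Y-linked counts or with Y-linked counts as a term, where their adjusted p reached 0.13 and 0.259. The log2 fold change of Syt2 was 1.15 in both, as in all 8 libraries, and that of Nefh was 0.58 against 0.73. Nefh also lost the call with library totals as the only scaling (0.0602) and without PTU+TH mouse 14, 15 or 16 (0.052, 0.0695 and 0.0543). Cplx1, a complexin of the release machinery, and Pvalb did not pass, at 0.32 and 0.50 on the log2 scale (edgeR adjusted p = 0.654 and 0.629). Syt2, Nefh and Pvalb are also among the PV class markers above.

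No gene of the other mitochondrial lists was called by edgeR, DESeq2 or limma voom. Of the nuclear-encoded respiratory targets 25 were tested, with a median log2 fold change of 0.15, and 5 were higher and 1 lower at an unadjusted p under 0.05, beside 6.59% and 6.17% of all tested genes. Cycs, which encodes cytochrome c, went from 5.63 ± 0.803 to 7.63 ± 0.56 CPM (mean ± SD, n = 4 a group; log2 fold change 0.44, edgeR adjusted p = 0.261) and the uncoupling protein gene Ucp2 had a log2 fold change of 0.79 with an interval from -0.07 to 1.65. Of 24 genes for the upkeep of mitochondrial DNA (median -0.02), 0 were higher and 2 lower at an unadjusted p under 0.05, a share near that of all tested genes. The 2 were the protease gene Lonp1, at 125.9 ± 8.08 CPM in PTU mice and 100.3 ± 15.8 CPM in PTU+TH mice, and the topoisomerase gene Top3a, at 21.8 ± 3.97 and 17.2 ± 2.35 CPM (mean ± SD, n = 4 a group; edgeR adjusted p = 0.196 and 0.353). Protein import and mitochondrial translation (14 tested, median 0.07) and mitochondrial dynamics and mitophagy (13 tested, median -0.01) had 0 genes at an unadjusted p under 0.05. Their largest changes were 0.16 for the elongation factor Tufm, 0.15 for the chaperone Hspa9, 0.26 for the fission factor Mief1 and -0.31 for the mitophagy receptor Bnip3 on the log2 scale. Genes of the mitochondrial genome itself took 0.00151% to 0.00324% of the counts. Of 13 of them 6 (mt-Nd3, mt-Nd4l, mt-Co2, mt-Co3, mt-Atp6 and mt-Atp8) were at 0 in all 8 libraries, while mt-Co1 had 46 to 162 counts, and why was not tested, so no level of these 6 can be read. The other 7 were tested and 0 reached an unadjusted p under 0.05. On few counts, their log2 fold changes ran from -0.88 for mt-Nd4 to 0.45 for mt-Nd2, both averaging under 1 CPM, with -0.56 for mt-Cytb and -0.37 for mt-Nd5 above that level.

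**Figure D4:**
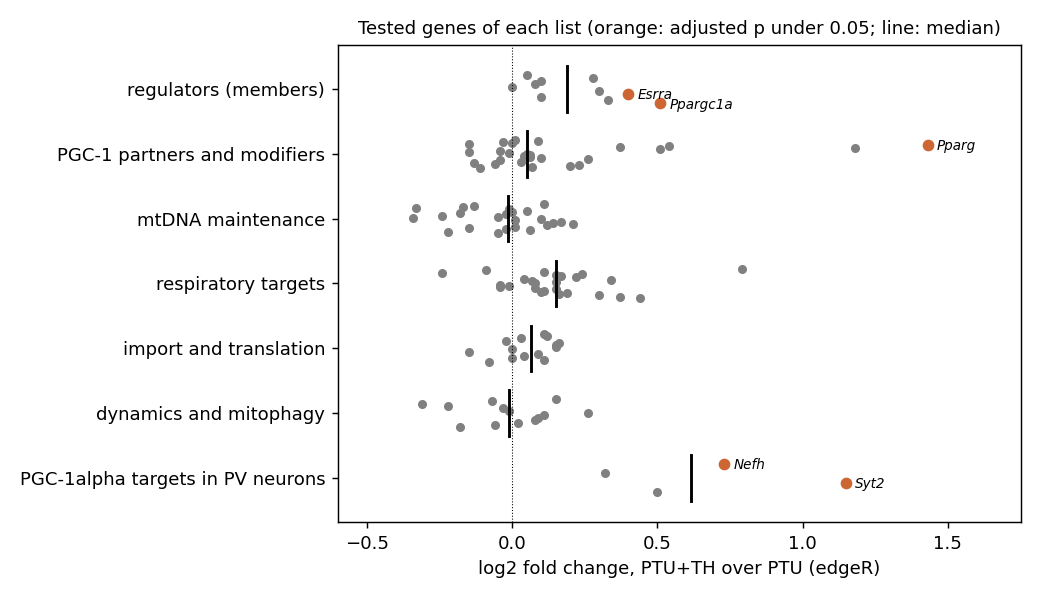
Each point is one tested gene and its log2 fold change, PTU+TH over PTU (horizontal axis), by list, with the list's median as a line and called genes in orange. Pparg at 1.43 and Syt2 at 1.15 lie farthest right among called genes of the pathway lists drawn, and the medians of mtDNA maintenance and of dynamics and mitophagy lie near 0.

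Finally, the 9797 other tested genes averaging 10 CPM or more were ranked by how closely their log2 CPM, centred on its own mean, followed that of Ppargc1a over the 8 libraries. The 5 nearest were Spock3, Cntn4, Gabbr2, Clmp and Dtna, with mean absolute differences of 0.057, 0.059, 0.063, 0.07 and 0.072 on the log2 scale. Their log2 fold changes lay between 0.42 and 0.48, and a value near that of Ppargc1a follows from how they were chosen. None of the 5 was called (edgeR adjusted p from 0.126 to 0.211).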

How the data were processed

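Each of the 8 files held raw counts of reads per gene symbol, as deposited by the authors, 1 file per mouse. Bowtie2 2.5.3 and mouse build GRCm38 (mm10) are named in the submitters' processing notes; the counting program, annotation and use of strand are not given in the sources used here. All 55341 symbols matched GENCODE M21, from which positions, lengths and overlaps were taken. The test was that of edgeR 4.0.16 (R 4.3.3): filterByExpr (17355 genes kept), TMM scaling, robust quasi-likelihood test, group as the only term, Benjamini-Hochberg adjustment over all genes kept. CPM are counts scaled by library size after TMM. Ratios of 2 genes per library were compared by exact permutation. Chi-square per degree of freedom within groups was 8.38 to 72.61, so no library was another of its group deposited again. Simulated counts for PTU+TH against PTU (17355 genes, 200 changed, drawn at random) gave 14.5% recovered at a log2 fold of 0.5 and 64.5% at 1. Over tested genes of all levels, changes of 0.5 are thus often missed. The share for genes with the levels and spread of the members was not simulated.

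Alternatives were DESeq2 1.42.0, limma 3.58.1 voom, other scalings and filters, Y-linked counts as a term or as a filter on libraries, and leaving out each library. The members and lists were chosen with earlier results of these data known. Named list genes were those called and the 2 largest changes at a mean of at least 1 CPM in each list. Marker genes, mt-Nd4 and mt-Nd2 were named after their values were seen. P-values measure the spread between mice. Fbxw7 and Cox4i1, at 0 in all libraries, lie inside other genes, where such counting gives 0 whatever the expression.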

Additional observations from a re-analysis of the deposited data

Results flagged for a closer look

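In 32 sets of 4 values (members, called genes of the pathway lists and the 3 ratios) a library standing well away from its group was looked for. It occurred in 2 sets, and about 5% of sets, here 1.6, do so by chance. Both were in Tfam, the packing factor of mitochondrial DNA. In PTU mouse 11 its level was 13.8 CPM, with 16.1 to 16.5 CPM in mice 9, 10 and 12, a gap of 0.87 of the group's range. In PTU+TH mouse 16 it was 12.9 CPM, with 17.7 to 18.3 CPM in mice 13 to 15, a gap of 0.899. At 278 and 271 counts, these 2 libraries had the fewest Tfam counts of the 8.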

How the results depend on the processing

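No paired analysis was possible because no number is shared by a PTU and a PTU+TH mouse. Against 368 called genes and 2 called members, the counts were 721 and 2 with DESeq2, 58 and 0 with only the 6 Y-positive libraries, 129 and 0 with Y-linked counts as a term, 642 and 2 with the 2 sets of mouse numbers as a term (added after the data were seen), and 1 member with library totals alone. The 6 libraries hold fewer mice; otherwise the cause was not tested. Higher genes, 70.1% of calls, were 89.7% in the 6 libraries and 82.2% with the Y-linked term, and 80.6% without PTU mouse 10. Leaving out a library gave 182 to 499 genes and 0 to 2 members; both members lost the call without PTU mouse 10 or 12 and without any one PTU+TH mouse. Scaling moved the median of all genes to between -0.028 and 0.006.

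Of 180 values of single members under alternatives, 155 kept direction and side of the threshold, 17 lost the call (all Ppargc1a or Esrra) and 8 turned sign: Nrf1 -0.01 with library totals and -0.04 without PTU mouse 9 and without PTU+TH mouse 14, Esrrg -0.003 in the 6 libraries and -0.004 with the Y-linked term, Gabpa -0.04 and Tfb2m -0.03 without PTU mouse 11, and Tfb2m -0.02 without PTU+TH mouse 13. Without single libraries these 3 genes lay between -0.04 and 0.03 (Nrf1), -0.04 and 0.17 (Gabpa) and -0.03 and 0.11 (Tfb2m). The difference of the log2 ratio Ppargc1a over Ppargc1b was 0.18 in the 6 libraries and 0.16 to 0.24 without single libraries; that of Ppargc1a over Gad2 was 0.31 and 0.36 to 0.49. Both lost the call without any one PTU+TH mouse (exact permutation p = 0.0571), although the groups still did not overlap. Both kept it without any one PTU mouse (exact permutation p = 0.0286). That of Esrrg over Esrra, -0.06, was -0.35 in the 6 libraries (exact permutation p = 0.333) and -0.19 to 0.08 without single libraries, being 0.08, 0.05, 0.07 and 0.01 without mice 11, 12, 13 and 14. Depth limits Tfb1m, whose counting error was 11.6%.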
